A study of Caenorhabditis elegans with 12 samples.

Results

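The genes described here are 9 of the G protein alpha subunits that Caenorhabditis elegans uses in its sensory neurons (odr-3, gpa-1, gpa-2, gpa-3, gpa-5, gpa-6, gpa-11, gpa-13 and gpa-15) and grk-2, a kinase of G protein-coupled receptors. They were chosen by gene name, and each was measured by 1 probe set, so that they make up 10 of 17118 named genes and 10 of 22548 probe sets tested. No probe set that carries several gene names held one of them. Their positions in the genome are not given, because no build is named for the probe annotation.

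Expression was measured on Affymetrix arrays in total RNA of whole embryos at the 3-fold stage, late in elongation, when the embryo is folded in its eggshell. The genotypes were the strain JT6924 with daf-19(m86) and daf-12(sa204), called the double mutant here, the strain JT204 with daf-12(sa204), called the daf-12 mutant, and JT5010, labelled N2 Bristol, the wild type. Both mutant strains carry the same daf-12 allele, so that they differ by daf-19(m86) in the labels. There were 4 columns of each genotype, but double mutant columns 1 and 2 were identical in all 22625 probe sets and counted as 1 array, named array 1-2, which left 3, 4 and 4 arrays. The labels do not say that arrays came from separate cultures, and p-values then measure only the spread between these samples, which may be technical. Precision is limited by how few arrays there are.

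A worm smells and tastes through ciliated neurons whose receptors sit in the membrane of the cilium. A bound receptor activates a G protein, and its alpha subunit passes the signal on to guanylyl cyclases and cyclic nucleotide-gated channels in some neurons, and to TRPV channels in others. Receptor kinases such as GRK2 phosphorylate active receptors. DAF-19 is the RFX transcription factor that switches on genes for building sensory cilia. DAF-12, a hormone receptor of the nuclear family, acts in the dauer decision. Because both mutant strains lack normal DAF-12, setting one against the other addresses the part of DAF-19. A whole embryo holds few cells of each sensory type, and in such bulk RNA fewer cells of a type and less RNA per cell cannot be told apart.

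The genotype was visible in daf-19 itself, whose brighter probe set fell in the double mutant. Its log2 difference was -1.45 from the daf-12 mutant, at an adjusted p of 0.0281 by limma, and -1.62 from wild type, at 0.00891. In 16 ciliary genes taken as a yardstick, the mean log2 level per array was 5.04 to 5.29 in the double mutant, against 6.36 to 7.39 in the daf-12 mutant and 6.80 to 7.30 in wild type. These genes had been picked with results of these data known, so their separation is no independent check of the genotype. The 24 poly-A spike-in controls averaged 4.16 to 4.32 on replicates 1 and 2 of all genotypes and 7.16 to 10.21 on replicates 3 and 4. The labels name no batch, and these are called the 2 sets of arrays here. Body wall muscle genes (10, mean log2 level of an array 10.15 to 10.91) and intestine genes (8, mean 9.89 to 10.46) were bright on every array.

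No sensory G alpha gene and no receptor kinase gene passed the test between the 2 mutant strains. All 10 log2 differences of the double mutant from the daf-12 mutant were below 0, from -1.18 in gpa-1 to -0.03 in gpa-5, with a median of -0.39, while over all probe sets 51.7% were below 0 and the median was -0.01. limma called 0 of the 10 (adjusted p under 0.05), where it called 0.0577% of all probe sets lower and 0% higher. At an unadjusted p under 0.05 the count was 1 of 10, against 2.39% of all probe sets lower and 2.53% higher. In 0 of the 10 did the arrays of the 2 genotypes fail to overlap, which 2.97% of all probe sets did on the lower and 2.29% on the higher side. The counts of calls, of low p-values and of groups apart lie near the background, whereas the count below 0 and the median do not. The intervals of single genes were wide. A lean below 0 was also seen in 9 of 10 body wall muscle genes (median -0.20) and 13 of 16 pan-neuronal genes (-0.10). Among other G alpha genes it was 9 of 12 (-0.17), but 6 of 16 G protein regulators and 3 of 8 intestine genes were below 0. Within replicates 1 and 2, 5 of the 10 genes were below 0. Several of the 10 genes also varied together over the arrays, though gpa-5 and grk-2 did not follow them. The 10 genes are thus not 10 separate observations.

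**Figure D1:**
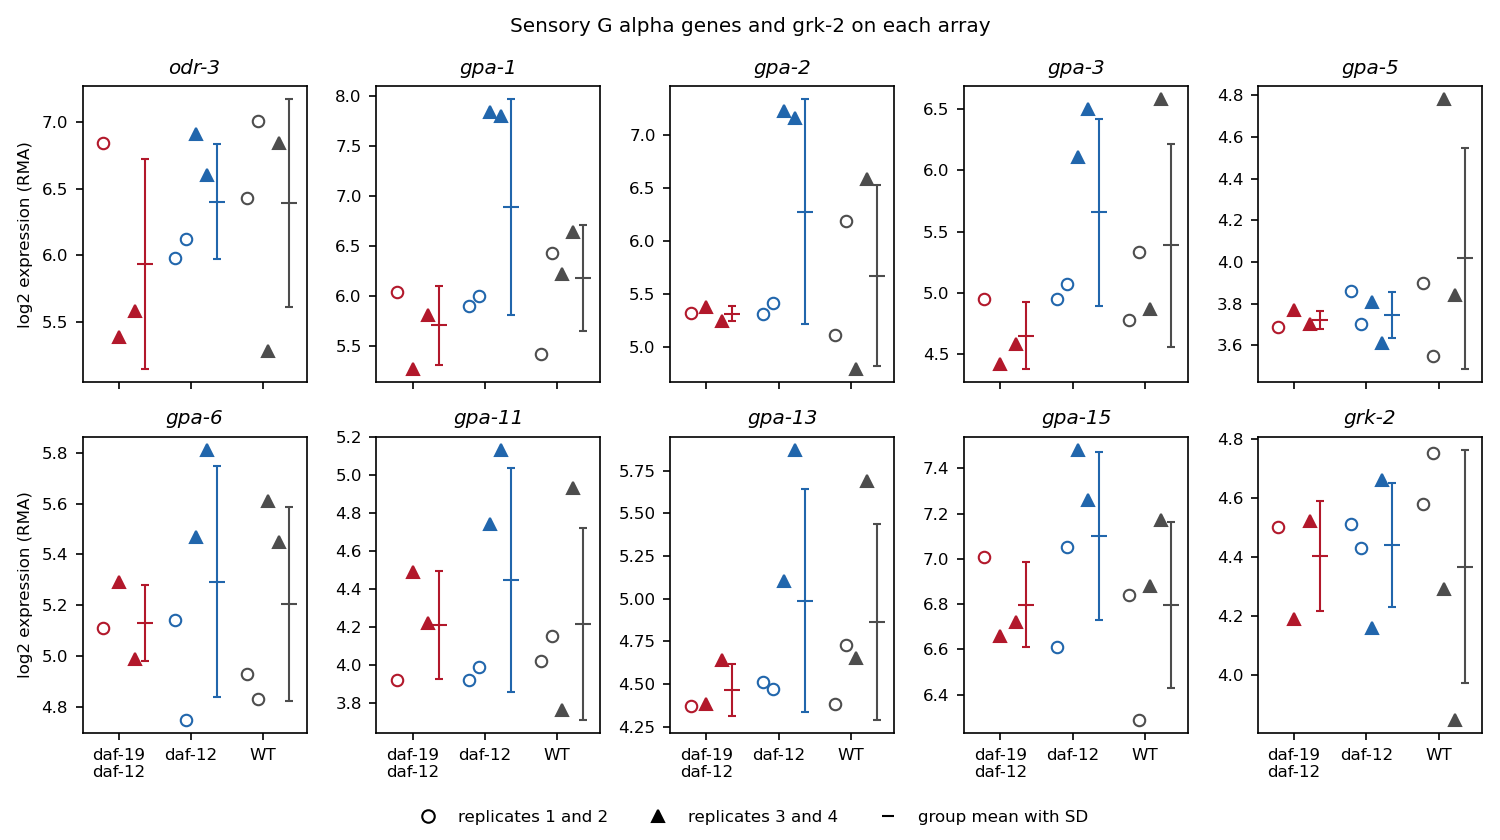
Log2 expression of the 10 genes on each array, in the double mutant (red), the daf-12 mutant (blue) and wild type (grey), with open circles for replicates 1 and 2, triangles for replicates 3 and 4, and the group mean with its SD beside them. In gpa-1 and gpa-2 the daf-12 mutant arrays 3 and 4 stand above all others, at 7.84 and 7.80 and at 7.23 and 7.16.

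The gene gpa-1 encodes a G alpha subunit of several amphid neurons and of the phasmid neurons in the tail. Its log2 expression was 6.04, 5.27 and 5.81 on double mutant arrays 1-2, 3 and 4, against 5.90, 6.0, 7.84 and 7.80 on daf-12 mutant arrays 1 to 4 and 5.42, 6.43, 6.22 and 6.64 on wild type arrays 1 to 4. Arrays 3 and 4 of the daf-12 mutant were high, and arrays 1 and 2 lay among the double mutant arrays. The log2 difference from the daf-12 mutant was -1.18 ± 0.50 (SE, n = 3 and 4), with a 95% interval of -2.28 to -0.07, an unadjusted p of 0.0384 and a limma adjusted p of 0.985. From wild type it was -0.47 ± 0.50, and the error of every log2 difference is likewise the SE.

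The subunits encoded by gpa-2 and gpa-3 are known for the response to the dauer pheromone. On double mutant arrays 1-2, 3 and 4, gpa-2 was at 5.32, 5.38 and 5.24, against 5.31, 5.41, 7.23 and 7.16 in the daf-12 mutant and 5.11, 6.19, 4.79 and 6.59 in wild type. The double mutant arrays lay close together (SD 0.08), while the SD was 1.06 in the daf-12 mutant, whose arrays 1 and 2 lay beside them, and 0.85 in wild type, whose arrays fell on both sides. For gpa-3 the values were 4.95, 4.42 and 4.58 in the double mutant, against 4.95, 5.07, 6.11 and 6.5 in the daf-12 mutant and 4.78, 5.33, 4.87 and 6.58 in wild type. In gpa-3 the mutant strains met only at the highest double mutant and the lowest daf-12 mutant array, and wild type arrays 1 and 3 lay within the double mutant range. The double mutant differed from the daf-12 mutant by -0.96 ± 0.55 (log2) in gpa-2 and -1.0 ± 0.47 in gpa-3 (95% interval -2.03 to 0.02), with a limma adjusted p of 1 for each.

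The gene odr-3 encodes the main G alpha subunit of olfaction in the AWA and AWC neurons, where it is found in the cilia, and it also serves avoidance in ASH. Its log2 expression was 6.84, 5.39 and 5.58 on double mutant arrays 1-2, 3 and 4, against 5.98, 6.12, 6.91 and 6.60 in the daf-12 mutant and 6.43, 7.01, 5.28 and 6.84 in wild type. One double mutant array was as high as the higher daf-12 mutant arrays, and the wild type array 3 was the lowest of all. The log2 difference was -0.47 ± 0.45 from the daf-12 mutant, with a 95% interval of -1.45 to 0.52, and -0.45 ± 0.45 from wild type. Both values stayed below 0 whichever array was left out, but their size depended on single arrays, most on double mutant array 1-2. Without double mutant array 1-2 they were -0.92 and -0.90, without array 3 -0.19 and -0.18, and without array 4 -0.29 and -0.27. The difference from the daf-12 mutant was -0.30 without daf-12 mutant array 3. The difference from wild type was -0.24, -0.82 and -0.30 without wild type arrays 2, 3 and 4.

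Further subunits are expressed in nociceptive or pheromone-sensing amphid neurons, gpa-11 in ADL and ASH, gpa-13 in ASH and AWC among others, and gpa-15 in ADL, ASH and ASK. The gene gpa-13 was at 4.37, 4.38 and 4.64 in the double mutant, against 4.51, 4.47, 5.10 and 5.87 in the daf-12 mutant and 4.38, 4.73, 4.65 and 5.69 in wild type. The gene gpa-15 was at 7.01, 6.66 and 6.72, against 6.61, 7.05, 7.48 and 7.26 in the daf-12 mutant and 6.84, 6.29, 6.88 and 7.17 in wild type. In both, arrays 3 and 4 of the daf-12 mutant lay above all double mutant arrays, while arrays 1 and 2 did not stand apart as a pair. The log2 differences from the daf-12 mutant were -0.53 ± 0.37 in gpa-13, -0.31 ± 0.25 in gpa-15 and -0.23 ± 0.34 in gpa-11. Leaving out 1 array gave -0.70 to -0.23 in gpa-13 and -0.41 to -0.01 in gpa-11, each closest to 0 without daf-12 mutant array 4, and -0.47 to -0.18 in gpa-15, closest to 0 without daf-12 mutant array 3. The weakest of these, gpa-11, was at 3.92 to 4.49 in the double mutant, against 3.92 to 5.13 in the daf-12 mutant and 3.76 to 4.93 in wild type.

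The remaining genes had the smallest differences between the mutant strains. The subunit of gpa-5, which works in AWA and ASI, had log2 values of 3.69 to 3.77 in the double mutant, against 3.61 to 3.86 in the daf-12 mutant and 3.55 to 4.78 in wild type. The subunit of gpa-6 had 4.99 to 5.29, against 4.75 to 5.81 in the daf-12 mutant and 4.83 to 5.61 in wild type. The kinase gene grk-2, which worms need for normal responses to many odours and tastes, had 4.19 to 4.52, against 4.16 to 4.66 in the daf-12 mutant and 3.85 to 4.75 in wild type. Its log2 difference from the daf-12 mutant was -0.04 ± 0.22, with a 95% interval of -0.53 to 0.45. The genes gpa-5, gpa-11 and grk-2 lay below the lower quartile of all probe sets by their mean over the arrays (limit 4.74). Others were dim on some arrays. Taken by array, gpa-3 was below the lower quartile on 2 of 3 double mutant, 0 of 4 daf-12 mutant and 1 of 4 wild type arrays. The gene gpa-13, with a mean of 4.80, was below it on 2 arrays of each genotype, and gpa-6 on 1 daf-12 mutant array. The deposited values carry no detection calls.

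**Figure D2:**
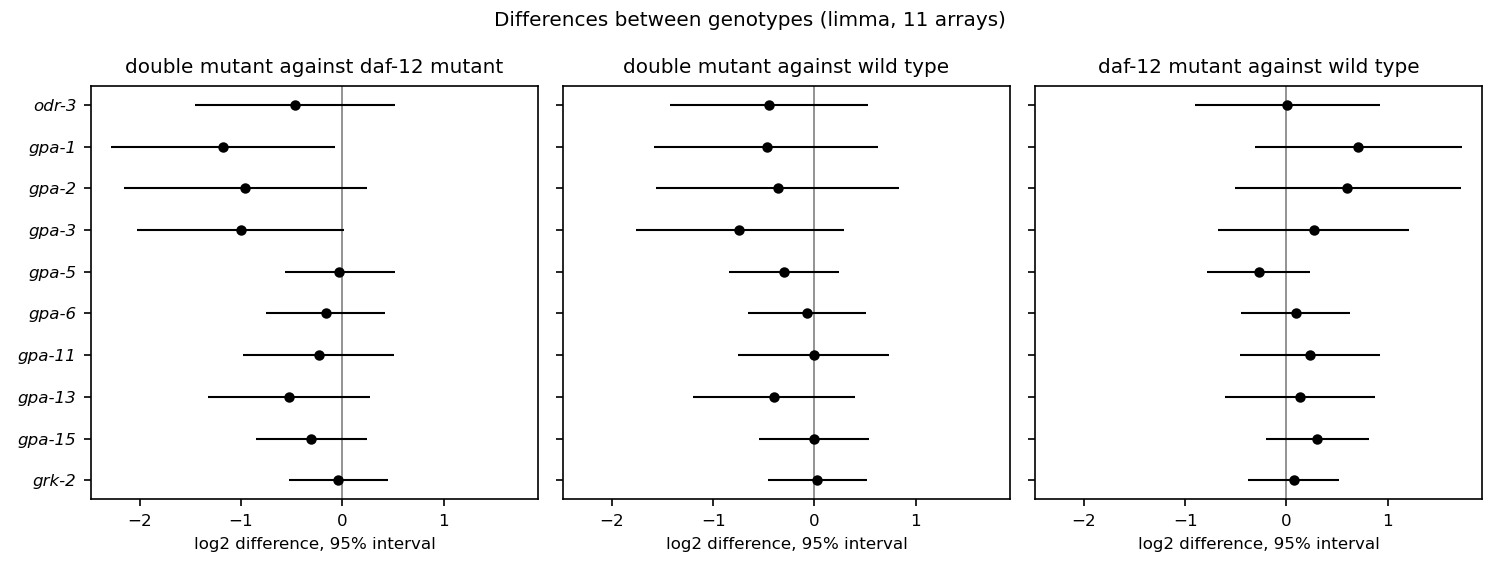
Log2 differences of the 10 genes (points) with 95% intervals (lines) of the double mutant from the daf-12 mutant (left) and from wild type (middle), and of the daf-12 mutant from wild type (right), by limma over 11 arrays. The interval left 0 out only in gpa-1 in the first comparison, at -2.28 to -0.07.

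Against wild type, 0 of the 10 genes were called in the double mutant, where limma called 0.102% of all probe sets lower and 0.0133% higher. At an unadjusted p under 0.05 the count was 0 of 10, against 2.08% of all probe sets lower and 1.93% higher. The log2 differences ran from -0.74 in gpa-3 (95% interval -1.76 to 0.29) to 0.03 in grk-2, with a median of -0.33, against a median of -0.03 over all probe sets. Without wild type array 4 the difference of gpa-3 was -0.34 and that of gpa-2 -0.05, against -0.36 with all arrays. That of gpa-1 was -0.25 without double mutant array 3 and -0.72 without wild type array 1, against -0.47 with all arrays. In 0 of the 10 were the arrays of the 2 genotypes apart, against 2.66% of all probe sets on the lower and 1.53% on the higher side. This comparison shares its double mutant arrays with the first.

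The daf-12 mutant alone also gave no call against wild type. limma called 0 of the 10 genes, where it called 0% of all probe sets lower and 0.0133% higher, and 0 had an unadjusted p under 0.05, against 1.09% of all probe sets lower and 1.93% higher. The log2 differences were above 0 in 9 of 10, with gpa-5 the exception at -0.27 ± 0.23, and the median was 0.18. The largest were 0.71 ± 0.47 in gpa-1 and 0.60 ± 0.51 in gpa-2. They were 0.39 and 0.29 without daf-12 mutant array 3, 0.40 and 0.31 without its array 4, and 0.46 and 0.42 without wild type array 1. Without wild type array 3 gpa-2 was at 0.31, while without wild type array 4 it was at 0.91 and without daf-12 mutant array 1 at 0.93. In 0 of the 10 were the arrays apart, against 0.723% of all probe sets on the lower and 0.878% on the higher side. By group means the order was double mutant, wild type, daf-12 mutant from low to high in odr-3, gpa-1, gpa-2, gpa-3, gpa-6 and gpa-13, and no neighbours in this order differed beyond their spread.

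The differences were larger in one set of arrays. Within replicates 3 and 4, 9 of the 10 genes were lower in the double mutant than in the daf-12 mutant by their log2 difference, with a median of -0.83, while the median over all probe sets was 0.05. Within replicates 1 and 2, where the double mutant has array 1-2 alone, 5 of 10 were below 0 and the median was 0.00. In replicates 3 and 4, 8 of 10 genes had both double mutant arrays below both daf-12 mutant arrays, and so did 29.9% of all probe sets, with 35.9% apart the other way. In replicates 1 and 2, 2 genes lay lower and 2 higher in the double mutant with no overlap, against 40.2% and 30% of all probe sets. At an unadjusted p under 0.05 the second set held 7 of the 10 genes by limma, against 13.6% of all probe sets lower and 12.8% higher.

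The gene gpa-1 fell by 2.28 ± 0.24 (SE, n = 2 and 2) within replicates 3 and 4, at a limma adjusted p of 0.00759, and it was the 1 gene of the 10 called there. This fit called 4.66% of all probe sets lower and 3.73% higher. Next came gpa-2 at -1.88 ± 0.50 (adjusted p = 0.0619), gpa-3 at -1.80 ± 0.49 (adjusted p = 0.0651) and odr-3 at -1.27 ± 0.45 (adjusted p = 0.127). Within replicates 1 and 2 the same genes differed by 0.09 in gpa-1, -0.04 in gpa-2, -0.06 in gpa-3 and 0.79 in odr-3. The test of whether the difference is unequal in the 2 sets gave -2.37 ± 0.51 for gpa-1 and -2.06 ± 0.68 for odr-3. It gave -1.84 ± 0.81 for gpa-2, -1.74 ± 0.72 for gpa-3 and -0.87 ± 0.38 for gpa-15. The other genes had values from -0.85 in gpa-13 to 0.12 in gpa-5. Replicates 1 and 2 hold 1 double mutant array, and this test was chosen after the values were seen. No call is therefore made from these values, and an unequal difference between the sets is not established for any of the genes.

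**Figure D3:**
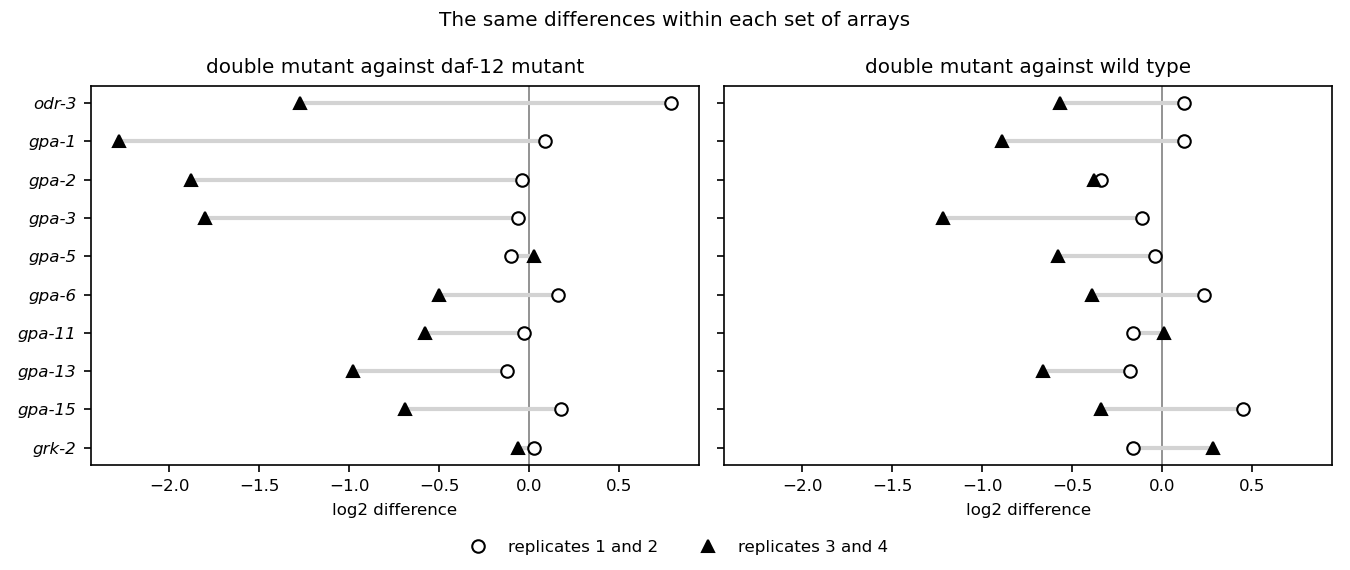
Log2 differences of the 10 genes within replicates 1 and 2 (open circles) and within replicates 3 and 4 (triangles), of the double mutant from the daf-12 mutant (left) and from wild type (right), with a grey line joining them. Against the daf-12 mutant, gpa-1, gpa-2 and gpa-3 lie near 0 in the first set and at -2.28, -1.88 and -1.80 in the second.

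Against wild type the second set gave smaller values in gpa-1, gpa-2, gpa-3 and odr-3. Within replicates 3 and 4 the log2 differences of the double mutant were -1.22 ± 0.49 in gpa-3 (limma adjusted p = 0.271), -0.89 ± 0.24 in gpa-1 (adjusted p = 0.138) and -0.57 ± 0.45 in odr-3. There the daf-12 mutant exceeded wild type by 1.39 ± 0.24 in gpa-1 (adjusted p = 0.08) and 1.5 ± 0.50 in gpa-2 (adjusted p = 0.192), and none of these was called. These fits called 0.577% of all probe sets lower and 0.297% higher for the double mutant, and 0% lower and 0.0577% higher for the daf-12 mutant. The double mutant arrays lay apart below wild type in 6 of 10 genes within replicates 3 and 4 (23.8% of all probe sets, with 22.2% above). In replicates 1 and 2 they lay apart below in 3 and above in 2 (29.3% and 22.9%). The daf-12 mutant lay apart below wild type in 1 gene and above in 3 within replicates 3 and 4 (28.9% and 21%), and below in 3 and above in 0 within replicates 1 and 2 (17.7% and 19.2%).

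A limma fit that took the 2 sets as a block gave 3 of 10 genes an unadjusted p under 0.05 between the mutant strains, gpa-1 (-1.31 ± 0.43, adjusted p = 0.42), gpa-3 (-1.11 ± 0.42, adjusted p = 0.482) and gpa-13 (-0.63 ± 0.28, adjusted p = 0.567), where 4.66% of all probe sets did so on the lower and 4.05% on the higher side. This fit called 0 of the 10, and it called 0.182% of all probe sets lower and 0.031% higher.

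The arrays that carried high values were much the same across the genes. Arrays 3 and 4 of the daf-12 mutant were both among the 3 highest of 11 in 7 of the 10 genes, as in 16.4% of all probe sets. In 6 of these 7 wild type array 4 was the other, as in 7.53% of all probe sets. In 7 genes both of these daf-12 mutant arrays lay above all double mutant arrays, as in 21.6% of all probe sets. Over the 9 G alpha genes the mean deviation from each gene's own mean, on the log2 scale, was -0.41 and -0.36 on double mutant arrays 3 and 4, against 0.66 and 0.78 on daf-12 mutant arrays 3 and 4 and -0.21 and 0.56 on wild type arrays 3 and 4.

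Some other gene lists, neuronal and not, were also high on daf-12 mutant arrays 3 and 4. The mean deviation there was 0.20 and 0.46 in 8 pharynx genes, 0.19 and 0.37 in 10 body wall muscle genes and 0.22 and 0.51 in 4 G beta and gamma genes. By contrast, 8 intestine genes had 0.07 and -0.12. Amphid glia genes had -0.12 and -0.10, epidermis genes -0.03 and -0.20, and germline and early embryo genes -0.34 and -0.20. Between the mutant strains within replicates 3 and 4, the median log2 difference was -0.62 in the pharynx list, -0.38 in the muscle list and -0.36 in the pan-neuronal list. It was 0.00 in amphid glia, 0.13 in epidermis, 0.15 in sensory neuron fate, 0.17 in intestine and 0.22 in germline and early embryo. The 16 pan-neuronal genes had a mean log2 level of 8.66 to 8.80 in the double mutant, against 8.43 to 9.26 in the daf-12 mutant and 8.66 to 9.19 in wild type, and daf-12 mutant arrays 3 and 4 were at 9.05 and 9.26 and wild type array 4 at 9.19. Of the 16, 13 were below 0 against the daf-12 mutant with a median of -0.10, and 0 were called. The part of RNA from these tissues in the G alpha differences was not tested. Taken as a list, the 15 measured genes of sensory neuron fate did not follow these arrays. Their mean log2 level was 7.18 to 7.28 in the double mutant, 7.11 to 7.28 in the daf-12 mutant and 7.33 to 7.44 in wild type. Their median difference from the daf-12 mutant was 0.13. The list also holds the channel gene tax-2, which was high on daf-12 mutant arrays 3 and 4, at 4.53 and 5.15. On daf-12 mutant arrays 1 and 2 tax-2 was at 3.31 and 3.25, and in the double mutant at 3.55 to 3.65.

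**Figure D4:**
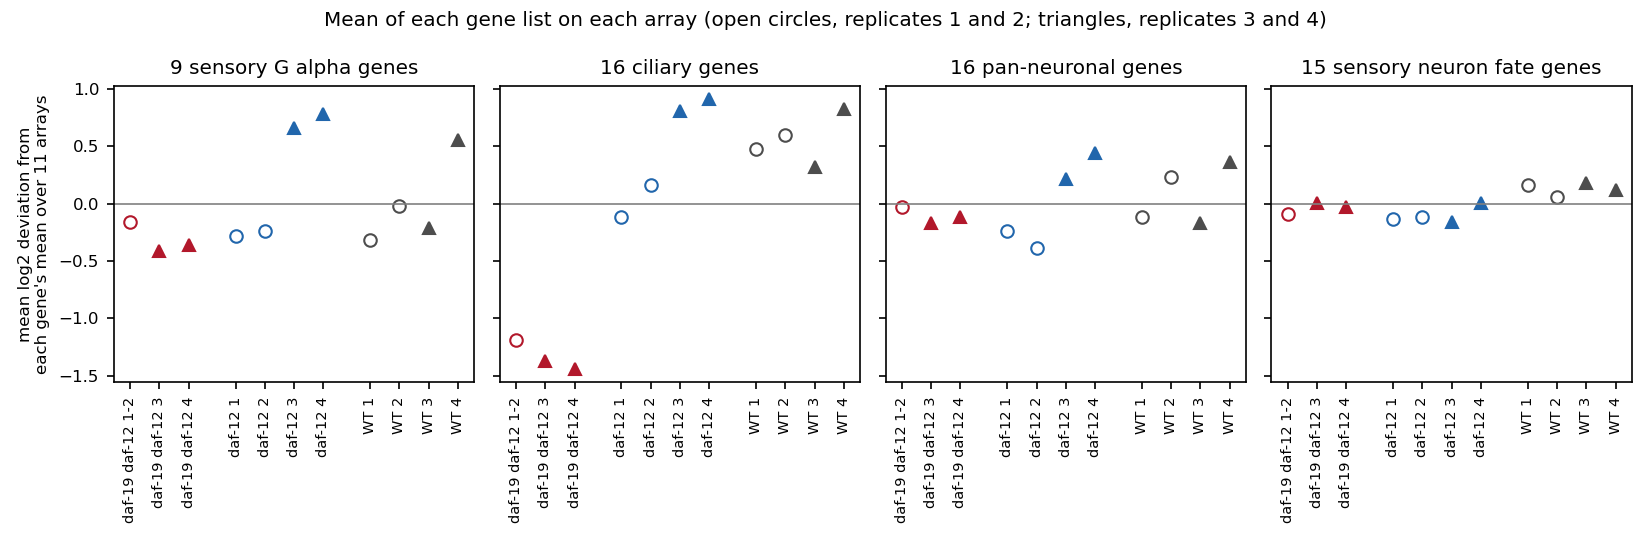
Mean log2 deviation of each array for 4 gene lists, each gene taken from its own mean over 11 arrays, with double mutant arrays in red, daf-12 mutant arrays in blue and wild type arrays in grey. The 9 G alpha genes stand highest on daf-12 mutant arrays 3 and 4 (0.66 and 0.78) and wild type array 4 (0.56), and the 16 ciliary genes stand highest on the same 3 arrays (0.81, 0.91 and 0.83). The ciliary genes also separate the double mutant from the other genotypes on every array.

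The ciliary genes were lower in the double mutant in both sets of arrays. The 16 ciliary genes had a median log2 difference from the daf-12 mutant of -1.57, with 16 below 0, 4 called lower and 16 with arrays that did not overlap. Taken by set, their median was -1.15 in replicates 1 and 2 and -2.27 in replicates 3 and 4, where the 9 G alpha genes had -0.03 and -0.98. The dynein light chain gene dylt-2 fell by 2.81 ± 0.36 (limma adjusted p = 0.0235) and the transition zone gene tctn-1 by 2.66 ± 0.20 (adjusted p = 0.00067), and mks-6, of the same zone, differed by -2.32 ± 0.39 (adjusted p = 0.068). These genes were picked as known DAF-19 targets with results of these data known.

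Several of the genes also varied together, to different degrees. After the mean of each set of arrays was subtracted, 33 of 45 pairs of the 10 genes had a Pearson r above 0 over 11 arrays, 19 had an r above 0.5, and the median was 0.43. The closest pairs were gpa-3 with gpa-13 (r = 0.95) and odr-3 with gpa-2 (r = 0.89). The lowest was gpa-5 with gpa-11, at -0.76, and grk-2 had between -0.30 and 0.17 with each G alpha gene. All genes of an array share its RNA and hybridisation, so these are descriptions.

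Among 10184 other genes, those most like the 3 genes with the largest differences were found in the same way. For gpa-1 they were math-47 (Pearson r = 0.98, Spearman rho = 0.99), nhr-208 (r = 0.97, rho = 0.94) and the ligand-gated channel gene lgc-10 (r = 0.97, rho = 0.97). For gpa-3 they were F58A3.4 (r = 0.97, rho = 0.96), the intraflagellar transport gene osm-6 (r = 0.97, rho = 0.96) and zip-5 (r = 0.97, rho = 1.00). For gpa-2 they were F35H12.1 (r = 0.99, rho = 0.98), cubn-1 (r = 0.98, rho = 0.97) and F15E6.9 (r = 0.97, rho = 0.95). With so many candidates and 11 arrays, high values of r are easily found.

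The other genes of the pathway were not called either. Of 12 other G alpha genes, which include the broadly expressed goa-1, egl-30 and gsa-1, 9 were below 0 against the daf-12 mutant with a median log2 difference of -0.17, and 0 were called. The largest differences were -0.52 ± 0.38 in gpa-12, -0.37 ± 1.39 in egl-30, -0.36 ± 0.55 in gpa-17 and -0.32 ± 0.32 in gsa-1. The large error of egl-30, the worm's Gq, came with the sets of arrays: its brighter probe set was at 11.59, 7.88 and 8.05 on double mutant arrays 1-2, 3 and 4, against 11.50, 11.06, 7.69 and 7.92 in the daf-12 mutant and 11.70, 12.27, 8.24 and 7.68 in wild type. Replicates 1 and 2 were high in every genotype, the reverse of the spike-in controls.

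The G beta and gamma genes showed the same lack of calls. Of the 4, gpb-1, gpb-2, gpc-1 and gpc-2, 3 were below 0 against the daf-12 mutant and 0 were called. The difference was -0.31 ± 0.23 in gpb-1, which encodes the main beta subunit, -0.27 ± 0.34 in gpc-1, a gamma subunit of sensory neurons, -0.07 ± 0.26 in gpb-2 and 0.04 ± 0.36 in gpc-2. Of 16 measured regulators of G proteins, 6 were below 0 with a median of 0.07, and 0 were called. The largest differences were -0.35 ± 0.26 in rgs-3, which encodes an RGS protein of sensory neurons, 0.31 ± 0.22 in rgs-9, -0.22 ± 0.34 in the other receptor kinase gene grk-1 and -0.20 ± 0.32 in rgs-2.

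Of 13 measured genes that act downstream of the G proteins, 10 were below 0 against the daf-12 mutant with a median of -0.24, and 0 were called. The cyclic nucleotide-gated channel gene tax-4 went the other way, at 6.36, 5.66 and 5.80 on the double mutant arrays, against 5.07, 5.11, 5.28 and 5.31 in the daf-12 mutant and 5.28, 5.65, 5.25 and 5.37 in wild type. All double mutant arrays lay above all others, array 1-2 by the most, and the log2 difference from the daf-12 mutant was 0.74 ± 0.19 (unadjusted p = 0.00255, limma adjusted p = 0.533). The gap to wild type was narrow, 5.66 against 5.65. A dimmer probe set of tax-4 was at 6.22, 5.08 and 5.17 in the double mutant, and wild type array 4 was at 5.08. Between the mutant strains 2.29% of all probe sets lay apart on the higher side. The TRPV channel gene ocr-2 lay apart on the lower (-0.40 ± 0.19), as did 2.97% of all probe sets. Its partner subunit gene tax-2 had -0.45 ± 0.41, the phosphodiesterase gene pde-5 -0.62 ± 0.57 and the TRPV channel gene ocr-1 -0.57 ± 0.37. Within replicates 3 and 4, limma called 4 of the 45 pathway genes lower, in the fit that called 4.66% of all probe sets lower. They were the guanylyl cyclase gene daf-11 (-1.40, adjusted p = 0.0303), ocr-1 (-1.28, adjusted p = 0.0244), tax-2 (-1.24, adjusted p = 0.0253) and gpa-8 (-0.84, adjusted p = 0.0475). All 4 went the other way in replicates 1 and 2, which hold 1 double mutant array, at 1.11, 0.25, 0.37 and 0.42 in the same order. Over all arrays daf-11 had -0.35 ± 0.43 and gpa-8 -0.27 ± 0.27. By their mean over the arrays, tax-2 (3.91) and gpa-8 (4.21) lay below the lower quartile limit of 4.74. A dimmer probe set of daf-11 was at 3.49 and 3.47 on double mutant arrays 3 and 4, against 3.95 and 3.66 in the daf-12 mutant.

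**Figure D5:**
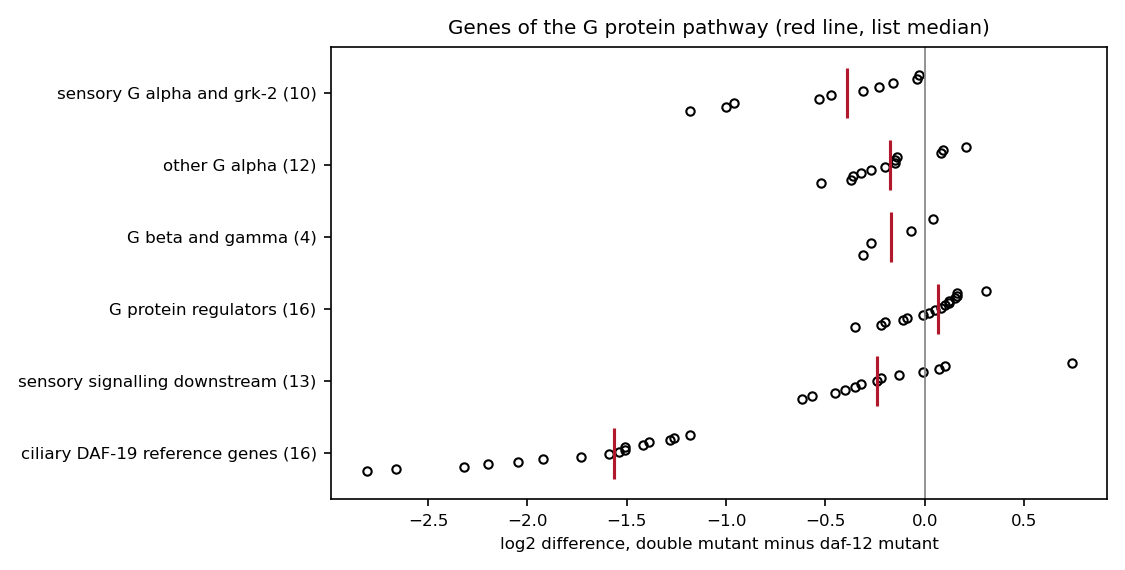
Log2 differences of the double mutant from the daf-12 mutant for each gene (open circles) of 6 lists, with the list median as a red line. The medians are -0.39 for the 10 sensory G alpha and kinase genes, -0.17 for 12 other G alpha genes, 0.07 for 16 regulators and -1.57 for 16 ciliary genes, and tax-4 is the point at 0.74.

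Against wild type the same 4 lists had 0 called genes in the double mutant. Their median log2 differences were -0.03 for the other G alpha genes, -0.23 for the beta and gamma genes, -0.04 for the regulators and -0.16 for the downstream genes, against -0.03 over all named genes. The daf-12 mutant differed from wild type by medians of 0.03, -0.17, -0.06 and -0.01 in the same lists, with 0 called.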

How the data were processed

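The authors deposited log2 values made with RMA (robust multi-array average), per the submitters' processing notes, with no version given. Each of the 12 columns matched a label. The 77 control probe sets were not tested. Arrays, not members, are the replicates. The values of 22548 probe sets on 11 arrays entered the linear models of limma 3.58.1 (R 4.3.3) with moderated variances and no block. Tests were two-sided, with Benjamini-Hochberg adjustment over all of them, and a call was an adjusted p under 0.05. The fit was tested on simulated data. For lists, the brightest probe set stood for a gene. Named genes were all 10 members, daf-19, and in each pathway list those called or with the 4 largest differences from the daf-12 mutant. In marker lists up to 3 such genes were named. Probe sets and genes called within replicates 3 and 4 were named after their values were seen, and so was the test of unequal differences between the sets chosen. The members and lists were chosen with earlier results of these data known. Deviations from group means correlated between arrays of equal replicate number at 0.22 to 0.29 (double and daf-12 mutant), 0.33 to 0.49 (double mutant and wild type) and -0.03 to 0.67 (daf-12 mutant and wild type). The main fit did not use the numbers as pairs, and a fit with the number as a block was run as an alternative. In that block array 1-2 counted as replicate 1. Within replicates 3 and 4, double mutant arrays also correlated with arrays of unequal number. These values were 0.13 and 0.32 with the daf-12 mutant and 0.21 and 0.34 with wild type. For the daf-12 mutant and wild type, arrays of unequal number within either set correlated at -0.14 to 0.68. In each comparison the values for equal and for unequal numbers of a set overlapped. These few values thus do not separate a likeness by number from one by set. A planned search for the X-box motif of RFX factors and protein alignments were not run, as sequences were not used here.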

Additional observations from a re-analysis of the deposited data

How the results depend on the processing

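With the replicate number as a block, no call changed for any of the 10 genes, and the difference of grk-2 between the mutant strains was 0.02. The block on the sets of arrays gave it 0.01. Of 30 differences (10 genes, 3 comparisons), 29 kept their direction under each block, and 0 genes were called under any alternative except within replicates 3 and 4. A filter that left out the dimmest 25% of probe sets kept 7 of the 10 genes, without gpa-5, gpa-11 and grk-2.

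Between the mutant strains (log2, double minus daf-12 mutant), replicates 1 and 2 gave 0.79 in odr-3, 0.09 in gpa-1, 0.16 in gpa-6, 0.18 in gpa-15 and 0.03 in grk-2, and 4 genes whose arrays did not overlap. Replicates 3 and 4 gave 8 such genes, 1 called gene, 4 called pathway genes and 0.03 in gpa-5. Centring arrays on the median gave 1 such gene and 0.00 in gpa-5. Leaving out 1 array gave 0 to 3 such genes, with 3 without double mutant array 1-2 and 3 without daf-12 mutant replicate 1, and -0.07 to 0.01 in gpa-5, -0.34 to 0.01 in gpa-6 and -0.13 to 0.07 in grk-2.

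In the double mutant minus wild type, replicates 1 and 2 gave 0.12 in odr-3, 0.12 in gpa-1, 0.23 in gpa-6, 0.45 in gpa-15 and -0.16 in grk-2, with 5 genes not overlapping. Replicates 3 and 4 gave 6 such genes and 0.01 in gpa-11. All 12 columns gave 0.05 in gpa-15, and a further quantile normalization gave 0.06 in gpa-11. Leaving out 1 array gave 0 to 2 such genes, -0.20 to 0.06 in gpa-6, -0.15 to 0.24 in gpa-11, -0.17 to 0.12 in gpa-15 and -0.14 to 0.16 in grk-2.

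In the daf-12 mutant minus wild type, replicates 1 and 2 gave -0.67 in odr-3, -0.29 in gpa-2, -0.05 in gpa-3, 0.05 in gpa-5, -0.13 in gpa-11, -0.06 in gpa-13 and -0.20 in grk-2, with 3 genes not overlapping, and replicates 3 and 4 gave 4. Quantile normalization gave -0.03 and centring -0.02 in odr-3. Leaving out 1 array gave -0.36 to 0.22 in odr-3, -0.01 to 0.66 in gpa-3, -0.08 to 0.27 in gpa-6, -0.16 to 0.41 in gpa-13 and -0.10 to 0.20 in grk-2. The cause of these changes was not tested. The promoter search and the protein comparison were not run.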
